A study of Homo sapiens with 24 samples.

Results

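The 10 genes described here encode RBM15 and the machinery that writes, removes and reads N6-methyladenosine (m6A) in mRNA. They were taken as the rows of the deposited table whose gene name matched a fixed list, 10 of 36481 genes, and all 10 were listed in all 24 libraries. The genes were chosen by name, and RBM15 was selected on these values, because it was higher after co-treatment in both cell lines, so its co-treatment values are given below as a description, with no test. Both lines, Hs578T and SKBR7, are established lines of triple-negative breast cancer (TNBC). Cells of each line received lapatinib (3.16 μM) together with PHA-767491 (1 μM), lapatinib alone, PHA-767491 alone, or the vehicle DMSO (0.1%), each for 6 h and each in triplicate. Lapatinib inhibits the EGFR and HER2 tyrosine kinases, and PHA-767491 inhibits the kinases cdc7 and CDK9. CDK9 releases paused RNA polymerase II into elongation.

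m6A is the most common internal modification of mRNA. METTL3 is the catalytic subunit of the writer and METTL14 its partner that binds RNA, while WTAP, ZC3H13, CBLL1 (HAKAI) and RBM15 or its paralogue RBM15B form the attached regulatory complex. FTO and ALKBH5 remove methyl groups, and YTHDF2 binds methylated mRNA and recruits the deadenylation machinery. The libraries measure the mRNA of these genes and not m6A itself.

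The deposited values are on a log2 scale, made by the authors from read pairs per gene by TMM scaling and quantile normalisation. Read totals are unknown, and the only measure of depth is how many genes each library lists, 9967 to 23320 (median 21735). Earlier results put 6 libraries in doubt, namely Hs578T DMSO replicates I and II, Hs578T PHA-767491 replicates I and III, SKBR7 lapatinib replicate II and SKBR7 co-treatment replicate I. The other 18 libraries listed 20287 to 23282 genes. The epithelial keratin KRT8 lay between 4.78 and 5.08 in Hs578T co-treatment and between 3.80 and 4.24 with lapatinib. It reached 9.71 in Hs578T PHA-767491 replicate III and 9.47 in Hs578T DMSO replicate II, against -3.52 in Hs578T DMSO replicate I. The collagen gene COL1A1 stood at 8.95 in SKBR7 lapatinib replicate II and between -0.01 and 5.46 in the other SKBR7 libraries. What part these libraries play in a result was not tested beyond leaving them out. The median gene also shifted between groups, over 12200 genes by 0.13 in Hs578T co-treatment against lapatinib and by -0.09 in SKBR7, and by 1.06 and -0.48 against DMSO. Of the receptors that define TNBC, ESR1 was listed in 10 of 12 Hs578T and 7 of 12 SKBR7 libraries and never above 0.83, and PGR never above -1.37. ERBB2 lay between 4.17 and 6.97. The sources call the replicates triplicates without naming separate cultures, so a p-value here covers the spread among samples that may be technical replicates.

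The start region of RBM15 is shown because RBM15 had the widest co-treatment differences of the 10 genes against lapatinib. All 10 genes were matched to RefSeq start sites (GRCh38.p14), with 12 windows of 250 bases before a start. A RefSeq start can lie inside the deposited gene span. The deposited spans of RBM15, CBLL1 and YTHDF2 begin at 110338506, 107743697 and 28736621, so the sites printed for these genes lie inside them. The first RBM15 site also overlaps the antisense transcript RP5-1074L1.1, which ends at 110339171. The letters CCAAT, searched on both strands, occurred 4 times in the RBM15 window, and 0.874% of 35116 windows held at least as many. The 30 bases around the farthest copy lie on the plus strand at chr1:110339158-110339187, and those around the E-box letters CACGTG at chr1:110339184-110339213. Capitals mark the motif.
RBM15 first site: cagactttttgtCCAATcaacacctcaaca
RBM15 second site: aacactttgggtCACGTGaccgcagagtgc

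RBM15B, the paralogue, also carried CACGTG, at chr3:51391193-51391222 on the plus strand, while the CCAAT letters were not in its window. The E-box letters occurred in 6.34% of windows.
RBM15B site: ccgccgcagagtCACGTGgcaggacggcgc

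CBLL1 and YTHDF2 are shown because they were also higher after co-treatment than with lapatinib. Each held 1 CCAAT, that of CBLL1 on the minus strand and so printed as ATTGG, at chr7:107744036-107744065. That of YTHDF2, at chr1:28736725-28736754, lies in the window before the start at 28736940. The other YTHDF2 window, before the start at 28736624, held no CCAAT.
CBLL1 site: ttgcaggccaaaATTGGgacaacctgcttg
YTHDF2 site: gcttccgctcctCCAATccgccagagggcg

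CCAAT occurred in 32.0% of all windows and in those of 6 of the 10 genes, and the GC box letters GGGCGG in 42.6% and also 6 genes. A gene was counted if any of its windows held the letters, while the percentages are per window. METTL14, WTAP and ZC3H13, which were not higher after co-treatment than with lapatinib in Hs578T, held CCAAT as well. A match is a description of the letters only.

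RBM15 lies on chromosome 1 at 110338506 to 110346681 (GRCh38), a gene of 3 exons and 8176 bases. In Hs578T, RBM15 stood at 6.14, 6.09 and 6.13 in the co-treatment libraries, against 3.79, 3.71 and 4.04 with lapatinib, 5.80, 4.86 and 5.13 with PHA-767491, and -0.89, 2.82 and 3.88 with DMSO. All 3 co-treatment libraries were above every other Hs578T library, where the background of genes that do so was 29.7% for lapatinib, 24.2% for PHA-767491 and 40.7% for DMSO, and the DMSO libraries were spread over more than 4 log2 units. In SKBR7 it stood at 6.16, 6.76 and 6.99 in the co-treatment libraries, against 3.57, 3.45 and 3.98 with lapatinib, 4.10, 4.56 and 4.05 with PHA-767491, and 4.11, 4.47 and 4.39 with DMSO. The SKBR7 co-treatment libraries were above all others too, where the background was 3.33% for lapatinib, 3.09% for PHA-767491 and 3.19% for DMSO.

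**Figure D1:**
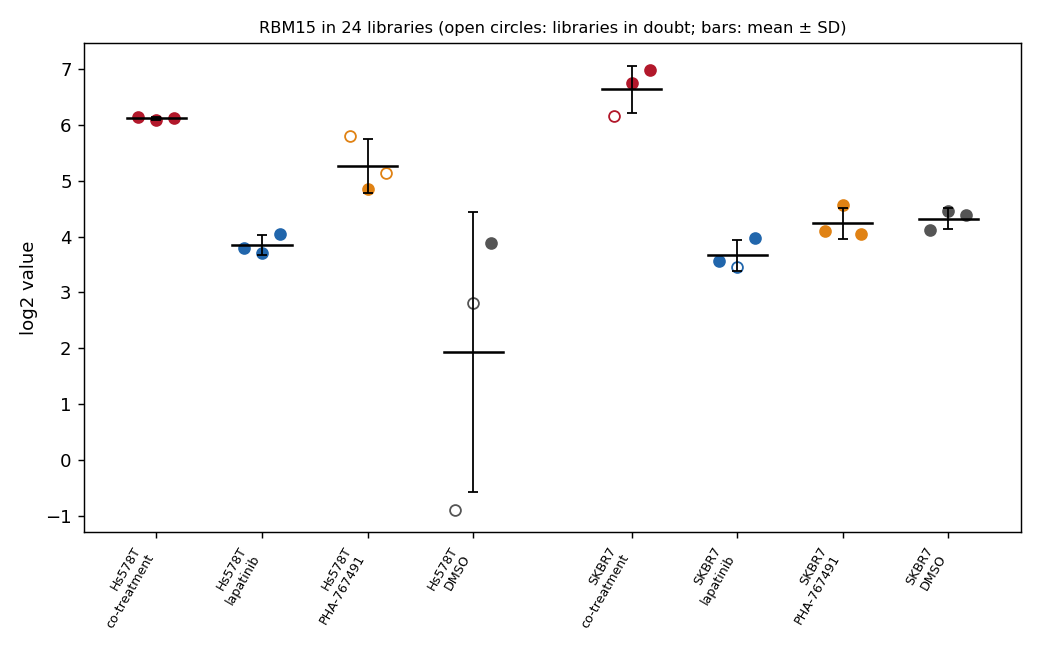
RBM15 by library. The vertical axis is the deposited log2 value, the horizontal axis the 8 groups, points are libraries (open where in doubt) and bars the mean ± SD of 3. The co-treatment libraries sit between 6.09 and 6.99, above all others, and Hs578T DMSO has an SD of 2.51.

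The co-treatment difference of RBM15 was 2.27 log2 units (SE 0.17) against lapatinib in Hs578T and 2.97 (SE 0.34) in SKBR7. In SKBR7 it was 2.40 against PHA-767491 and 2.32 against DMSO (SE 0.34 for each). In Hs578T it was 0.86 against PHA-767491 and 4.18 against DMSO (SE 0.92 for each). Without the doubted libraries, and with the rest ranked anew, these Hs578T differences were 1.31 and 2.20, each against the 1 library left of PHA-767491 or DMSO. Ordered by mean, SKBR7 co-treatment (6.64) came before Hs578T co-treatment (6.12), Hs578T PHA-767491 (5.26), SKBR7 DMSO (4.32), SKBR7 PHA-767491 (4.24), Hs578T lapatinib (3.84), SKBR7 lapatinib (3.66) and Hs578T DMSO (1.94). The ranges of SKBR7 DMSO and SKBR7 PHA-767491 overlapped, as did those of the 2 lapatinib groups. That of Hs578T DMSO overlapped the ranges of both lapatinib groups.

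Neither drug alone gave an RBM15 difference that passed with all libraries. With lapatinib in SKBR7 it was lower than with DMSO in every library, by a log2 difference of -0.66 (SE 0.34, limma adjusted p = 0.729), where 8.08% of genes were lower without overlap. With PHA-767491 in SKBR7 the difference was -0.08 (SE 0.34, limma adjusted p = 1). In Hs578T the difference of PHA-767491 from DMSO was 3.33 (SE 0.92, limma adjusted p = 0.489), 1.91 without DMSO replicate I and 0.89 without all doubted libraries, but 4.30 and past the threshold without DMSO replicate III (limma adjusted p = 0.0133). That of lapatinib from DMSO was 1.91 (SE 0.92, limma adjusted p = 0.412), 0.50 without DMSO replicate I and 0.01 without all doubted libraries, but 2.88 and past the threshold without DMSO replicate III (limma adjusted p = 0.0287). Both also passed with array weights, a fit that did not converge. DMSO replicate III is the 1 Hs578T DMSO library not in doubt, and PHA-767491 replicate II the 1 such library of Hs578T PHA-767491. The values without all doubted libraries rest on these single libraries. In both lines no gene passed for either drug alone, against 525 and 485 genes at an unadjusted p under 0.05 in SKBR7 for lapatinib and PHA-767491, and 2004 and 1641 in Hs578T.

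Among the other 9 genes, 3 passed for co-treatment against lapatinib in Hs578T, with CBLL1 and YTHDF2 higher and METTL14 lower. That is 2 of 9 higher, where 18.3% of all tested genes were higher, and 1 of 9 lower, where 11% were. Their median difference was -0.11, against 0.18 over all genes tested. CBLL1 (chromosome 7, 107743697 to 107761667), an E3 ubiquitin ligase found in the writer complex, stood at 6.49, 6.40 and 6.53 in co-treatment, against 5.20, 5.35 and 5.55 with lapatinib. The 3 co-treatment libraries were above all 3 lapatinib libraries, as for 29.7% of genes, and the log2 difference was 1.11 (SE 0.13, limma adjusted p = 7.5e-15). YTHDF2 (chromosome 1, 28736621 to 28769775) stood at 7.58, 7.52 and 7.50 in co-treatment, against 7.04, 6.94 and 7.14 with lapatinib, also without overlap. Its difference was 0.49 (SE 0.10, limma adjusted p = 2.4e-05).

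METTL14 (chromosome 4, 118685368 to 118715433) stood at 3.69, 3.86 and 3.68 in Hs578T co-treatment, against 4.36, 4.28 and 4.47 with lapatinib. The groups did not overlap, as for 18.2% of genes that were lower, and the difference of -0.62 (SE 0.22) passed with a limma adjusted p of 0.0217. It did not pass without co-treatment replicate I (0.116), co-treatment replicate III (0.0729) or lapatinib replicate I (0.064). METTL3 (chromosome 14, 21498133 to 21511375), the catalytic subunit, stood at 4.57, 4.74 and 4.45 in co-treatment, against 5.22, 4.79 and 5.02 with lapatinib. All co-treatment libraries were lower, but the difference of -0.43 (SE 0.18, limma adjusted p = 0.0521) did not pass. It passed in 5 of 14 alternatives, among them without lapatinib replicate II (-0.54, adjusted p = 0.0081) and after centring the libraries on their medians (-0.51, 0.0044).

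The other 5 genes differed by -0.21 to 0.05 in Hs578T and did not pass. RBM15B (chromosome 3, 51391268 to 51397908), which binds uridine-rich RNA as RBM15 does, stood at 6.11, 6.20 and 5.90 in Hs578T co-treatment, against 6.01, 5.85 and 6.21 with lapatinib. In SKBR7 it stood at 6.90, 6.90 and 7.04 in co-treatment, against 6.85, 6.84 and 7.12 with lapatinib. The paralogue thus overlapped between the treatments in both lines, with differences of 0.05 (SE 0.13, limma adjusted p = 0.839) and 0.01 (SE 0.18, 0.999). WTAP, the adaptor that holds the writer in nuclear speckles, stood at 5.96, 6.14 and 5.91 in Hs578T co-treatment, against 6.18, 6.30 and 6.14 with lapatinib. ZC3H13, which keeps the complex in the nucleus, stood at 5.79, 5.91 and 5.91 in Hs578T co-treatment, against 5.81, 6.13 and 5.99 with lapatinib. Both overlapped between the groups, with differences of -0.20 (SE 0.13, limma adjusted p = 0.249) and -0.11 (SE 0.13, 0.595). The demethylase FTO spans 456821 bases, at least as long as 98.6% of the 10935 protein-coding genes listed in every library but Hs578T DMSO replicate I, and stood at 5.85, 5.76 and 5.83 in Hs578T co-treatment, against 5.79, 5.99 and 6.29 with lapatinib. ALKBH5, the other demethylase, stood at 6.89, 7.01 and 6.83 in Hs578T co-treatment, against 6.91, 6.77 and 6.94 with lapatinib. Neither demethylase separated the treatments, with differences of -0.21 (SE 0.13, limma adjusted p = 0.243) and 0.03 (SE 0.11, 0.864).

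These p-values come from the 6 libraries of the comparison, whose spread limma took as shared by all genes at a given level. Without that trend only CBLL1 passed (adjusted p = 0.031), and with all 12 Hs578T libraries none did.

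**Figure D2:**
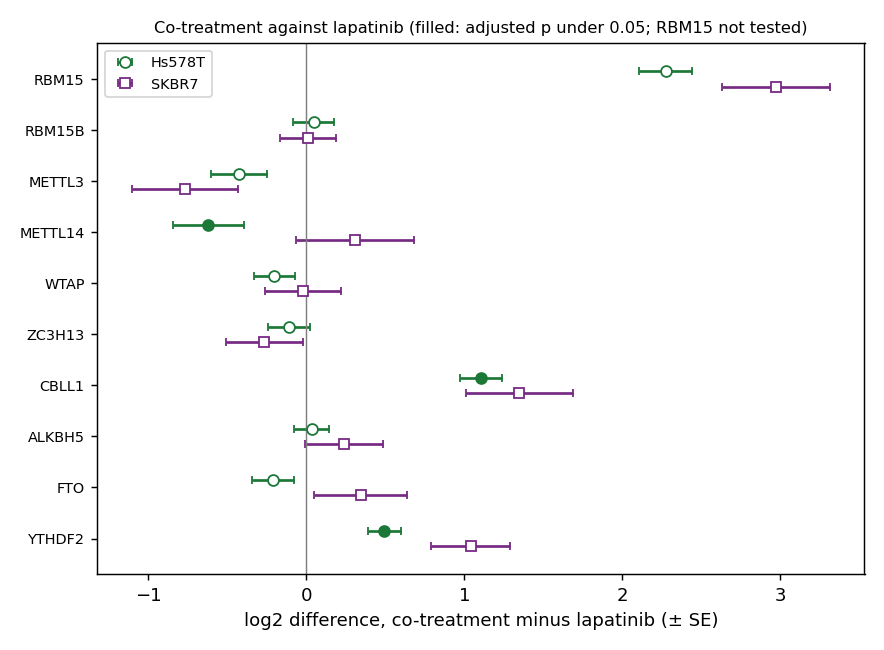
Co-treatment minus lapatinib for the 10 genes. The horizontal axis is the log2 difference, bars are SE, circles are Hs578T and squares SKBR7, filled where the adjusted p was under 0.05. RBM15 (2.27 and 2.97) has no test, and CBLL1, YTHDF2 and METTL14 are filled in Hs578T only.

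In SKBR7, CBLL1 and YTHDF2 were also above lapatinib in every co-treatment library, as 3.33% of genes were. By limma 0 of 9 genes passed, where 0.748% of all tested genes did. At an unadjusted p under 0.05, 3 of the 9 did, where 2518 of 21932 tested genes did. The median of the 9 differences was 0.24, against -0.08 over all genes tested. CBLL1 stood at 5.86, 6.24 and 6.51 in co-treatment, against 5.20, 3.98 and 5.39 with lapatinib, a difference of 1.35 (SE 0.34, limma adjusted p = 0.0692). YTHDF2 stood at 6.86, 7.02 and 7.18 in co-treatment, against 6.22, 5.34 and 6.39 with lapatinib, a difference of 1.04 (SE 0.25, limma adjusted p = 0.0620). The lowest value of both genes with lapatinib was replicate II, a library in doubt.

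Without the doubted libraries, the SKBR7 differences were 1.07 for CBLL1 (limma adjusted p = 2.0e-05) and 0.79 for YTHDF2 (1.2e-05), both past the threshold. In that setting 2170 of 12200 genes were called higher and 2418 lower. Leaving out lapatinib replicate II alone gave 0.72 for YTHDF2 (0.0333), and leaving out lapatinib replicate III gave 1.61 for CBLL1 (0.0478) and 1.25 for YTHDF2 (0.0358). Of 12 fits with 1 library left out, CBLL1 did not pass in 11, among them that without lapatinib replicate II. YTHDF2 did not pass in 10 of the 12. METTL3 stood at 3.82, 5.00 and 5.07 in SKBR7 co-treatment, against 5.35, 5.16 and 5.68 with lapatinib, which is lower without overlap, as 6.63% of genes were, a difference of -0.77 (SE 0.33, limma adjusted p = 0.376). METTL14 stood at 4.66, 5.01 and 5.28 in SKBR7 co-treatment, against 5.13, 3.67 and 5.22 with lapatinib. These overlap, and the difference was 0.31 (SE 0.37, limma adjusted p = 0.819), or -0.20 without lapatinib replicate II.

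**Figure D3:**
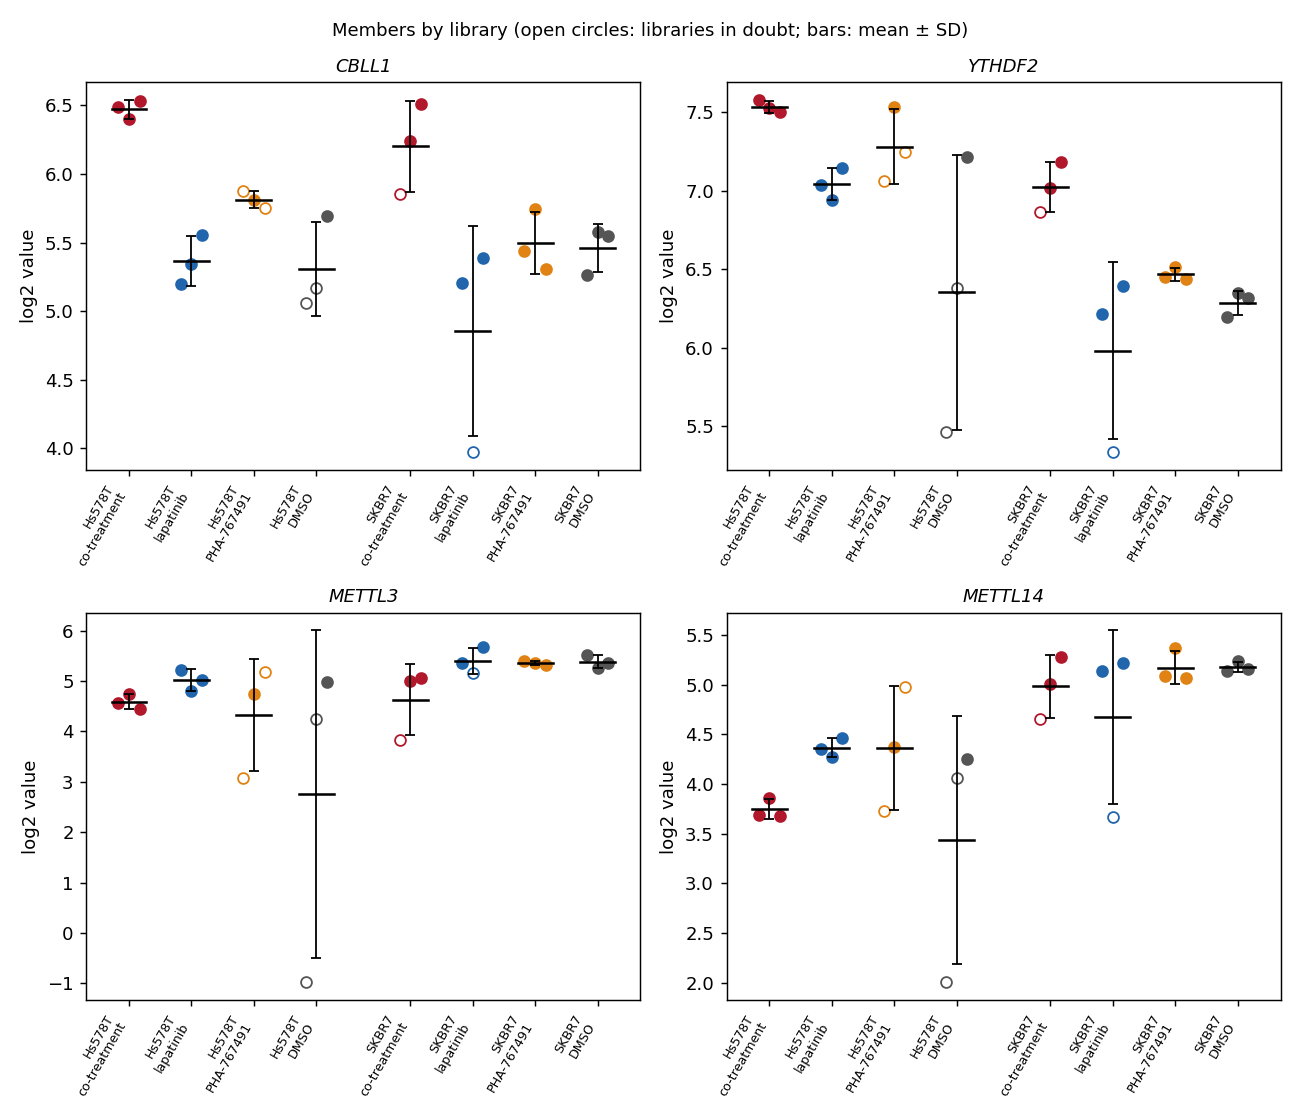
CBLL1, YTHDF2, METTL3 and METTL14 by library. Axes, points and bars are as in the plot of RBM15. CBLL1 and YTHDF2 in co-treatment lie above lapatinib in both lines, while METTL3 lies below it in both.

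Against PHA-767491 and DMSO, which share the co-treatment libraries with the comparison above, 0 of 9 genes passed in either line. At an unadjusted p under 0.05, 2 of the 9 did against PHA-767491 and 3 against DMSO in SKBR7, and 0 and 2 in Hs578T. Over all tested genes, 2318 of 22253 and 3840 of 22521 did in SKBR7, and 1233 of 23003 and 4622 of 21228 in Hs578T. In SKBR7, 0.431% of tested genes passed against PHA-767491 and 1.53% against DMSO, and in Hs578T none. CBLL1 and YTHDF2 were above PHA-767491 and above DMSO in every SKBR7 co-treatment library, as 3.09% and 3.19% of genes were. RBM15B, METTL3 and WTAP were below PHA-767491 in every SKBR7 co-treatment library, as 18.2% of genes were, and RBM15B and METTL3 below DMSO, as 33.1% were. METTL3 differed by -0.73 from PHA-767491 (SE 0.33, limma adjusted p = 0.46) and by -0.75 from DMSO (SE 0.33, 0.261). Against PHA-767491 in SKBR7, CBLL1 differed by 0.70 (SE 0.34, limma adjusted p = 0.482) and YTHDF2 by 0.56 (SE 0.25, 0.453). Against DMSO they differed by 0.74 (SE 0.34, limma adjusted p = 0.275) and 0.74 (SE 0.25, 0.141), and that of YTHDF2 passed without lapatinib replicate II (0.0081). In Hs578T, CBLL1 differed by 0.66 from PHA-767491 (SE 0.37, limma adjusted p = 0.813) and by 1.16 from DMSO (SE 0.37, 0.19). YTHDF2 overlapped between co-treatment and PHA-767491 in Hs578T, with a difference of 0.25 (SE 0.40, limma adjusted p = 0.923), or 0.01 without the doubted libraries. Against DMSO it differed by 1.18 (SE 0.40, limma adjusted p = 0.19), or 0.30 without the doubted libraries. Without DMSO replicate III both genes passed against DMSO (0.00898 for CBLL1 and 0.00561 for YTHDF2). ZC3H13 and FTO were below PHA-767491 in every Hs578T co-treatment library, as 11.9% of genes were, with differences of -0.25 (SE 0.73, limma adjusted p = 0.973) and -0.38 (SE 0.38, 0.862). METTL3 differed from DMSO by 1.83 (SE 1.17, limma adjusted p = 0.344), and by -0.45 without the doubted libraries. Without these, Hs578T PHA-767491 and DMSO keep 1 library each, so only the differences are given.

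Between the lines under lapatinib, 2 of the 10 genes passed as higher in Hs578T, where 8% of all tested genes did. None passed as lower, where 4.95% did. ALKBH5, a demethylase, stood at 6.91, 6.77 and 6.94 in Hs578T, against 5.96, 5.53 and 6.29 in SKBR7. The difference was 0.95 (SE 0.28, limma adjusted p = 0.0233), and it passed in 23 of 31 alternatives. YTHDF2 was higher by 1.06 (SE 0.34, limma adjusted p = 0.0424), in 14 of 31 alternatives. Without SKBR7 lapatinib replicate II neither passed, with differences of 0.75 (0.0947) and 0.74 (0.211). RBM15 differed by 0.18 (SE 0.72, limma adjusted p = 0.927). RBM15B did not pass, but stood at 6.01, 5.85 and 6.21 in Hs578T, against 6.85, 6.84 and 7.12 in SKBR7, a difference of -0.91. ZC3H13 did not pass either, at 5.81, 6.13 and 5.99 in Hs578T, against 6.23, 6.99 and 6.21 in SKBR7.

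The co-treatment difference from lapatinib was also compared between the lines. In Hs578T minus SKBR7 it was -0.24 for CBLL1 (SE 0.50) and -0.55 for YTHDF2 (SE 0.48), with a limma adjusted p of 1 for both. None of 19168 tested genes passed, and 376 had an unadjusted p under 0.05. In simulated data this comparison recovered 0% of changes of 1 log2 unit and 5% of changes of 2. A difference between the lines of that size could thus go unseen here.

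The writers, readers and supply genes outside the 10 were taken from lists fixed for this work. Of 18 other m6A genes, 3 were higher and 4 lower in Hs578T co-treatment than with lapatinib, where 18.3% and 11% of all tested genes were. YTHDF1, a reader paralogous to YTHDF2, was higher by 0.92 (SE 0.12, limma adjusted p = 7.1e-12). It stood at 6.73, 6.67 and 6.75 in co-treatment, against 5.80, 5.56 and 6.04 with lapatinib. PRRC2A, described as a reader, differed by -1.08 (SE 0.09, limma adjusted p = 2.3e-28), and IGF2BP3, RBMX and FMR1 differed by -0.55, -0.45 and -0.65, METTL16 by 0.46 and TRMT112 by 0.31. The median of the 18 was 0.11, against 0.18 over all genes tested. The calls for METTL16 and TRMT112 ended without co-treatment replicates I or II, and also without lapatinib replicate II for METTL16 (adjusted p 0.138 to 0.171) and III for TRMT112 (0.0782 to 0.171). That for IGF2BP3 ended without any of the co-treatment libraries or lapatinib replicate III (0.0591 to 0.135). Without the variance trend, RBMX (limma adjusted p = 0.0762), METTL16 (0.226) and TRMT112 (0.212) did not pass, while YTHDF1 (0.0438) and PRRC2A (0.0355) did. With all 12 Hs578T libraries none of 22846 tested genes passed.

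In SKBR7, 1 of the 18 was higher, where 0.164% of tested genes were, and 1 lower, where 0.584% were. YTHDF1 differed by 1.12 (SE 0.24, limma adjusted p = 0.0311) and PRRC2A by -0.72 (SE 0.15, 0.0305). Leaving out 1 of 7 libraries ended the call for YTHDF1 (DMSO II or III, any PHA-767491 library, co-treatment II or III, adjusted p 0.0532 to 0.102). Leaving out 1 of 8 ended that for PRRC2A (DMSO II or III, any PHA-767491 library, co-treatment I or II, lapatinib III, 0.0568 to 0.109).

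MAT2A, which makes the methyl donor S-adenosylmethionine and whose mRNA METTL16 methylates, had the most negative difference of the 3 methyl donor genes in both lines. In Hs578T it stood at 4.94, 5.11 and 4.86 in co-treatment, against 7.41, 7.28 and 7.45 with lapatinib, a difference of -2.41 (SE 0.13, limma adjusted p = 8.7e-78). In SKBR7 it stood at 5.90, 6.65 and 6.61 in co-treatment, against 7.86, 6.94 and 7.96 with lapatinib, a difference of -1.20 (SE 0.24, limma adjusted p = 0.0171). That call ended without co-treatment replicate I (0.0848), lapatinib replicate I (0.0663) or lapatinib replicate III (0.0844). Of the other supply genes, MAT2B differed by -0.40 in Hs578T (SE 0.13, limma adjusted p = 0.0118, or 0.143 without co-treatment replicate I) and AHCY by 0.20 (SE 0.09, 0.102). In SKBR7, MAT2B differed by -0.95 and AHCY by -0.14. Neither passed there, and MAT2B did in 4 of 20 alternatives. SPEN, a relative of RBM15 with the same SPOC domain, was higher by 0.87 in Hs578T (SE 0.12, limma adjusted p = 4.1e-12) and differed by 0.61 in SKBR7 (SE 0.27, 0.379). In Hs578T it stood at 7.02, 6.90 and 7.11 in co-treatment, against 5.45, 6.67 and 6.30 with lapatinib. Without the variance trend MAT2A passed in Hs578T (limma adjusted p = 0.0244), but MAT2B (0.115) and SPEN (0.146) did not. With all 12 Hs578T libraries MAT2A (0.12), MAT2B (0.9995) and SPEN (0.988) did not pass.

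**Figure D4:**
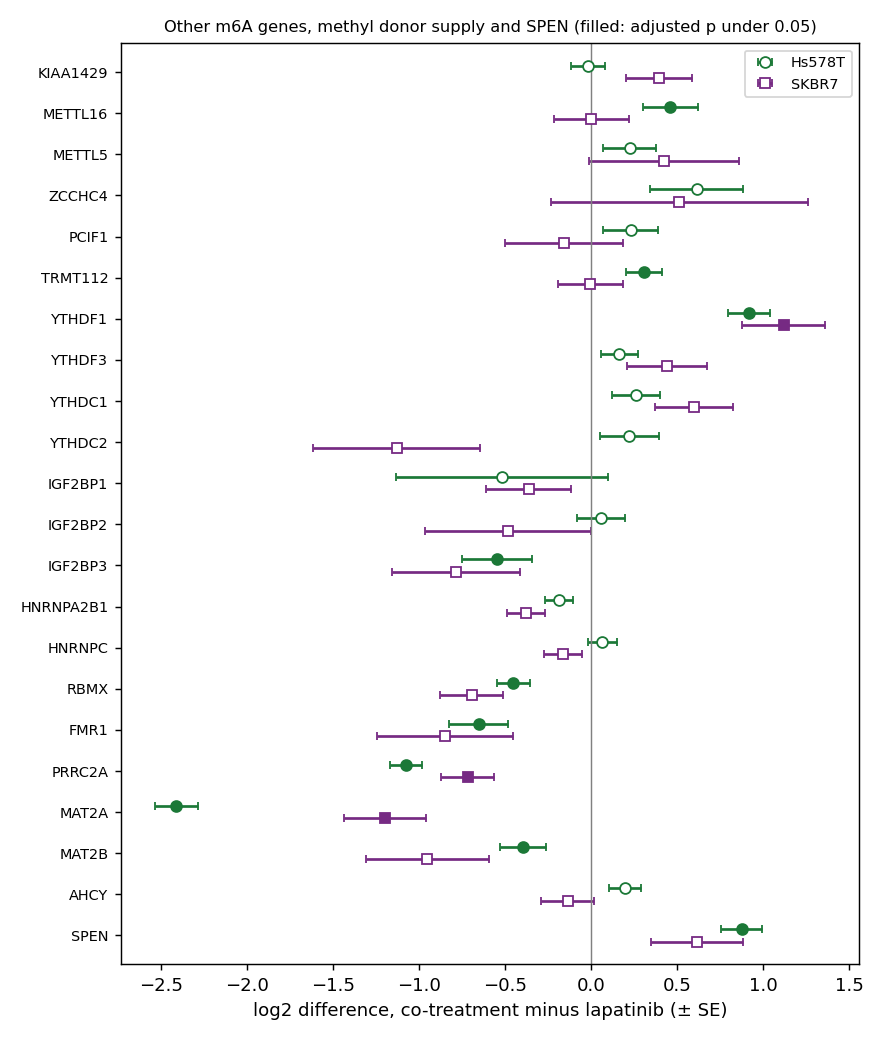
Co-treatment minus lapatinib for 18 other m6A genes, 3 methyl donor genes and SPEN. Axes and symbols are as in the plot of the 10 genes. MAT2A is lower in both lines (-2.41 and -1.20), and YTHDF1 and PRRC2A are filled in both.

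The pattern of RBM15 was compared with that of other genes over the 18 libraries not in doubt, ranked anew and centred on each line. The genes most like it, of 6100 ranked, were TUSC2 (Pearson's r 0.97), CLP1 (0.97), ARGLU1 (0.97), CELF1 (0.97) and WEE1 (0.97). CBLL1 (0.97) had 7 genes above it, and YTHDF2 (0.92) had 75. METTL3 (-0.84), WTAP (-0.66) and METTL14 (-0.56) ran the other way in these 18 libraries. Of the 6100 ranked genes, 5487, 4684 and 4356 had a higher r than these, so many genes ran further that way. The r of METTL3, WTAP and METTL14 over all 24 libraries was positive, at 0.51, 0.35 and 0.46. Libraries of 1 treatment share their condition, so these are descriptions. Over all 24 libraries r was 0.64 for TUSC2, 0.80 for WEE1, 0.78 for CBLL1 and 0.90 for YTHDF2.

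Per kilobase of mRNA (GENCODE), and without SKBR7 lapatinib replicate II, the log2 level with lapatinib was highest for YTHDF2 in Hs578T (5.58) and for WTAP in SKBR7 (5.90). It was lowest for METTL14 in Hs578T (1.63) and for RBM15 in SKBR7 (2.02), with RBM15 at 2.09 in Hs578T.

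Several of the 10 genes overlap another gene. RBM15 overlaps RP5-1074L1.1, an antisense transcript listed in 22 libraries at -2.30 to 1.51. WTAP overlaps SOD2, METTL3 overlaps TOX4 and RBM15B overlaps VPRBP. Whether the counting used strand is not given in the sources used here, so reads of such pairs may not be separable.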

How the data were processed

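RNA was sequenced from 24 libraries (TruSeq Stranded mRNA, HiSeq2500). The authors counted read pairs per gene with featureCounts 1.4.6 on GRCh38, scaled them with edgeR and quantile normalised them, and deposited log2 values. The methods name STAR and the labels HiSat2 as the aligner. A second deposited table of group averages and ratios holds the authors' own comparisons and was not used. Of 36517 lines, 36 repeated identifiers were left out.

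Groups follow the labels. Group differences were fitted by limma 3.58.1 (R 4.3.3) (cell means, variance trend, Benjamini-Hochberg adjustment over all genes tested, threshold 0.05) on genes listed in at least 3 libraries, over the 12 libraries of a line, the 6 of co-treatment and lapatinib in Hs578T, or all 24 between lines. No value was filled in. The genes and lists were chosen with earlier results of these data known. The 10 genes are named by list, the others by whether they passed or, for likeness to RBM15, as the 5 with the highest correlation. Per-gene depth is unknown.

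The test was tested on simulated data with 200 genes altered in the co-treatment group. Changes of 1 and 2 log2 units were recovered in 28% and 57% of genes in the 6 Hs578T libraries, and in 14% and 45% in SKBR7 against lapatinib. In the 12 Hs578T libraries 1% and 12% were recovered against PHA-767491, and 0% and 8% against DMSO. For the difference between lines, over all 24 libraries, 0% and 5% were. Alternatives were no filter, genes listed in every library, no variance trend, centring, array weights, a replicate block, other sets of libraries and leaving out each library. Promoter letters come from RefSeq and gene spans from GENCODE. Figures used Python 3.11.15 and matplotlib 3.10.9.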

Additional observations from a re-analysis of the deposited data

How the results depend on the processing

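Numbers below are counts of the described genes that passed, of 9 without RBM15 where co-treatment is compared and of 10 otherwise. Array weights, whose fit converged only over the 6 Hs578T libraries, gave 7, 8 and 9 in SKBR7 co-treatment against lapatinib, PHA-767491 and DMSO. Of all genes, 8037 were called higher and 5726 lower of 21932, 5123 and 7738 of 22253, and 3225 and 10859 of 22521. For lapatinib and PHA-767491 alone in SKBR7 the counts were 4 and 2, with 579 and 11627 of 22875 genes and 696 and 6329 of 23206. In Hs578T co-treatment they were 5, 2 and 6, with 6968 and 3560 of 21814, 1292 and 2034 of 23003, and 11629 and 2140 of 21228. For the drugs alone they were 4 and 7, with 11365 and 1244 of 21166 and 11363 and 780 of 21314. Between lines under lapatinib the count was 5, with 4728 and 3624 of 21316. Without the doubted libraries, ranked anew, the counts were 3, 4 and 3 in SKBR7 co-treatment, 6 between lines under lapatinib and 3 for the difference between lines. Hs578T co-treatment against lapatinib holds no doubted library. There the same 6 libraries, only ranked anew over 12200 genes, gave a count of 6. Of 12200 genes, 2170 were then called higher and 2418 lower in SKBR7 against lapatinib, 2272 and 2422 against PHA-767491, and 2570 and 2616 against DMSO. In Hs578T against lapatinib 3879 and 3374 were, between lines 4112 and 4368, and for the difference between lines 1116 and 1405. Hs578T PHA-767491 and DMSO keep 1 library each there, so no count is given. Centring gave 2, 1 and 2 in SKBR7 co-treatment, 5 in Hs578T against lapatinib and 1 between lines. Of all genes it called 438 higher and 533 lower of 21932, 77 and 175 of 22253, and 330 and 482 of 22521 in SKBR7. In Hs578T it called 3798 and 3186 of 21814, and between lines 2284 and 2045 of 21316. Genes listed in every library gave 2 in SKBR7 against lapatinib, where 105 genes were called higher and 301 lower of 14170. No variance trend gave 1 in Hs578T against lapatinib, where 725 genes were called higher and 831 lower of 21814. Between lines under lapatinib it gave 0, where 1604 and 1018 of 21316 genes were called. All 12 libraries gave 0 in Hs578T against lapatinib, where none of 22846 tested genes passed.

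Leaving out 1 library gave 0 to 2 in SKBR7 against lapatinib, 0 to 0 against PHA-767491 and 0 to 1 against DMSO. Over all genes, 7 to 75, 1 to 51 and 3 to 123 were called higher. Lower were 64 to 466, 11 to 574 and 50 to 1624. In Hs578T co-treatment it gave 2 to 4, 0 to 0 and 0 to 2. There 2687 to 4733, 0 to 6 and 0 to 6493 of all genes were higher, and 1875 to 2795, 0 to 141 and 0 to 123 lower. For lapatinib and PHA-767491 alone in Hs578T it gave 0 to 3 and 0 to 2. Of all genes, 0 to 5379 and 0 to 3635 were higher, and 0 to 32 and 0 to 1 lower. In SKBR7 it gave 0 to 0 for each alone. Between lines under lapatinib it gave 0 to 3, with 1124 to 2731 genes higher and 673 to 1846 lower. For the difference between lines it gave 0 to 0.

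The sign turned for the following differences, including METTL3 against DMSO in Hs578T, which was 1.83 with all libraries. RBM15B against lapatinib in Hs578T was -0.0333 centred and -0.00184 ranked anew, and in SKBR7 -0.0218 without doubted libraries. ALKBH5 in Hs578T was -0.00566 with array weights, -0.0457 centred and -0.00797 ranked anew. METTL3 in Hs578T was -0.17 with array weights and -0.11 without doubted libraries against PHA-767491, and -0.45 without them against DMSO. In SKBR7 against lapatinib, METTL14 was -0.12 with array weights and -0.0318 without doubted libraries, WTAP 0.10 centred and ZC3H13 0.11 without doubted libraries. RBM15 with PHA-767491 in SKBR7 was 0.0395 centred and 0.11 without doubted libraries, and CBLL1 between lines 0.0852 with array weights. With single libraries left out, RBM15B in Hs578T ran from -0.0423 to 0.14 and in SKBR7 from -0.038 to 0.10, ALKBH5 from -0.0177 to 0.0753, METTL3 from -0.37 to 0.69 and from -0.0325 to 2.95, METTL14 from -0.20 to 0.58, WTAP from -0.33 to 0.15, RBM15 with PHA-767491 from -0.25 to 0.0115 and CBLL1 between lines from -0.51 to 0.20. The cause was not tested.

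Replicate numbers did not pair the samples, since 5 of 18 same-numbered pairs in each line correlated above 0.1, and 5 of 12 Hs578T and 4 of 12 SKBR7 libraries correlated best with their own number. With the replicate block the count between lines under lapatinib was 0, where 944 genes were called higher and 525 lower of 21316. METTL14 in Hs578T did not pass with that block (limma adjusted p = 0.12). Over all genes, Hs578T co-treatment against lapatinib called 3999 higher and 2403 lower, or 725 and 831 with no variance trend, and SKBR7 called 36 and 128, or 2 and 0. Without the doubted libraries SKBR7 called 2170 and 2418.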
